A study of Rattus norvegicus with 9 samples.

Results

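Map2, Dlg4, Cdh2 and Ppp2r2b are 4 neuronal and synaptic mRNAs, described here in rat cortex after cerebral ischemia-reperfusion through their N6-methyladenosine (m6A) signal. Their probes were chosen by name, as those repeated in 10 spots on the array whose accession belongs to one of these genes, and all 4 genes had 1 such probe each among 41186 probes for transcripts. Of the 50 probes with repeated spots, 30 could be matched to a gene symbol. The 4 genes were proposed after results of the model group against the control group were known, so that comparison is given as a description with no test. The comparisons of BHD-treated rats share their control or model arrays with it, so the tests given there for Map2, Dlg4 and Cdh2 are not independent of how the genes were chosen.

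RNA of the cortex on the ischemic side came from 9 male Sprague Dawley rats, 8 weeks old, with 1 array per rat and 3 rats per group. Control rats underwent the same neck surgery without the wire plug that occludes the middle cerebral artery, and no time point is given for them in the labels. Model rats had 2 h of occlusion followed by reperfusion and were sampled on day 7, and the third group consisted of such model rats given Buyang Huanwu Decoction (BHD), a traditional herbal decoction, also labelled 7 days. The labels call the rats of a group biological replicates, and the control labels count 1 more rat, which was not analysed here. There was no group of control rats given BHD.

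m6A is the most abundant internal modification of mRNA. It is placed by a methyltransferase complex, removed by demethylases and read by proteins that alter the stability, localization and translation of the transcript, and brain mRNAs carry much of it, including many that act at synapses. On each array the RNA pulled down by an anti-m6A antibody (IP) was labelled with Cy5, and the RNA left in the supernatant (Sup) of the same rat with Cy3. These 3 quantities are given on the log2 scale: the normalized IP signal, the normalized Sup signal, and log2(IP/Sup), the relative m6A level of a probe. Since no array had the dyes exchanged, any dye bias of a probe remains in each ratio and cancels in differences between groups, and the level of one probe says nothing about that of another. The signals come from bulk cortex, in which fewer cells of a type and less RNA per cell cannot be told apart.

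Signal well above background was found for 71.0% to 82.8% of probes in the IP channel and 58.5% to 72.9% in the Sup channel of the 9 arrays. The median raw IP intensity over all probes was 59 and 58 on model replicates 2 and 3 and 53 on BHD replicate 3. On the other arrays it was 71 to 83.5. The part of this in the values below was not tested. Arrays with the same scan time are called a slide here, which is inferred, since no slide identifier was used. Slide 1 held the 3 control arrays and model replicate 1. Slide 2 held model replicates 2 and 3 with BHD replicates 1 and 2, and slide 3 held BHD replicate 3. No slide held both control and BHD-treated rats. A fit with slide as a block therefore links these groups through the model rats, with model replicate 1 as the only one beside the controls. BHD replicate 3, alone on slide 3, adds nothing to the differences of such a fit. A probe was called when it differed by at least 1.5-fold with an unadjusted p under 0.05 in limma, the thresholds of the study, and p-values adjusted over all probes (Benjamini-Hochberg) are given beside them. With 3 rats per group, the smallest two-sided p of an exact permutation test is 0.1. Any full separation of a pair of groups gives that p. The share of all probes so separated was not counted, and separations below are descriptions only. Of 8 neuronal marker genes, Map2 was the one with a named probe, and markers of astrocytes, microglia, oligodendrocytes and endothelium had none (0 of 6, 0 of 8, 0 of 6 and 0 of 4). With the probes named here the cell composition of the samples could therefore not be checked, and its part in the values was not tested. Of 51 neuronal and synaptic genes listed, these 4 had a named probe, and of 16 m6A writers, erasers and readers 0 had one. Symbols were sought only for the 50 probes with repeated spots. Whether other probes on the array measure these genes or cell type markers was not checked.

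On each of the 9 arrays, all 10 spots of each of the 4 probes exceeded background clearly in the IP and the Sup channel, and no spot was saturated. The scanner software marked 6 of 90 spots as outliers for Dlg4, 7 for Cdh2, 8 for Ppp2r2b and 9 for Map2, and these were left out. Before normalization the median IP intensity of an array ran from 1614.5 to 5300 for Map2, from 374.25 to 966.5 for Dlg4, from 923.25 to 2700.25 for Cdh2 and from 476.5 to 2619.5 for Ppp2r2b. The median Sup intensity ran from 343.5 to 814.25 for Map2, from 232.5 to 450.75 for Dlg4, from 166.5 to 337 for Cdh2 and from 253.25 to 603.25 for Ppp2r2b. Spots of one array agreed more closely than arrays of one group did. In log2(IP/Sup), the SD between arrays was 4.56 times the SD between spots for Ppp2r2b, 2.76 times for Cdh2, 1.97 times for Map2 and 1.31 times for Dlg4. Spots are technical repeats, and every difference and test below uses 1 value per rat.

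**Figure D1:**
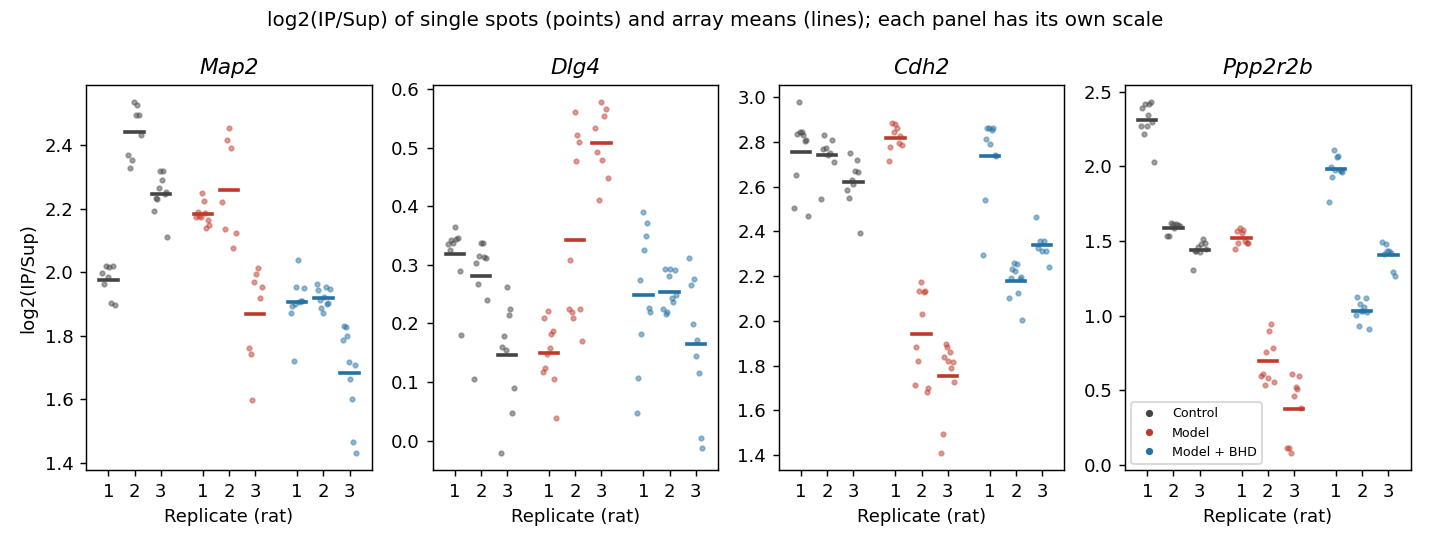
log2(IP/Sup) of the 4 mRNAs, with each remaining spot as a point and the mean of each array as a line, by rat and group; each panel has its own vertical scale. The spots of most arrays lie close together. The low Cdh2 and Ppp2r2b values belong to model replicates 2 and 3, while model replicate 1 lies at 2.82 for Cdh2 and 1.52 for Ppp2r2b. On model replicates 2 and 3 the Ppp2r2b spots scatter most, with SDs of 0.156 and 0.217.

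Map2 (probe A_44_P111897, RefSeq NM_013066) encodes a microtubule-associated protein of neuronal dendrites. Its IP signal was lowest in the BHD-treated rats, below every control rat, and the model rats lay between. The IP signal was 11.99, 12.02 and 11.72 in control rats 1 to 3, 11.32, 11.76 and 11.54 in model rats 1 to 3, and 11.34, 11.29 and 10.89 in BHD-treated rats 1 to 3. The lowest control value was thus above the highest BHD-treated value, whereas the model values overlapped both other groups.

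The difference in Map2 IP signal between BHD-treated and control rats was −0.74 ± 0.16 (SE of the limma fit, n = 3 per group), which is 1.67-fold lower. It met both thresholds with an adjusted p of 0.271 in limma and was the 1 call among the 3 genes tested for IP signal in this comparison, where 3.59% of all probes were called. The control arrays are those of the known comparison, in which the Map2 IP signal already lay 0.37 lower in model rats (−0.37). The 95% confidence interval of the difference ran from −1.10 to −0.37, and the exact permutation test gave p = 0.1, the smallest it can give. In all 9 pairs of a BHD-treated and a control array, every Map2 spot of the first had a lower IP signal than every spot of the second. Spots are technical repeats, so this adds no support to the separation of 3 rats from 3. The Map2 difference was lowest of the 27 named repeated-spot probes tested, whose median was 0.11. Of all probes tested, 1.22% had a difference as low or lower. The Map2 call remained in 16 of 17 alternative settings and was lost when an adjusted p under 0.05 was asked for. The settings reuse the same arrays, and those that change only the probe filter leave the difference itself as it was. The control and BHD-treated groups lay on different slides. With slide as a block, which links them through the model rats, the difference was −0.92 (adjusted p = 0.368). It rested on model replicate 1 for the link to the controls, and BHD replicate 3 did not bear on it.

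The Sup signal of Map2, the part not bound by the antibody, differed less. It was 10.02, 9.58 and 9.47 in control rats, 9.14, 9.50 and 9.67 in model rats, and 9.43, 9.37 and 9.21 in BHD-treated rats. All BHD-treated values were below all control values, by 0.35 ± 0.17 on average (−0.35 on the log2 scale, adjusted p = 0.359 in limma), and this was no call, in a comparison where 5.93% of all probes were called. With slide as a block the Sup difference was −0.74 and met both thresholds (adjusted p = 0.990), in a fit that called 2.24% of all probes.

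The relative m6A level of Map2 was correspondingly less separated than its IP signal. log2(IP/Sup) was 1.98, 2.44 and 2.25 in control rats, 2.18, 2.26 and 1.87 in model rats, and 1.91, 1.92 and 1.68 in BHD-treated rats. Control and BHD-treated values did not overlap, yet the gap between the nearest rats was small, and the difference of −0.39 ± 0.15 stayed under 1.5-fold (adjusted p = 0.872 in limma, exact permutation p = 0.1). The share of all probes separated in this way, as for the IP and Sup signals of Map2, was not counted. In this comparison 0.975% of all probes were called for log2(IP/Sup), and 0 of the 3 genes tested. With slide as a block the difference was −0.19 (adjusted p = 0.843).

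Against the model rats, the BHD-treated rats had a Map2 IP signal lower by 0.37 (−0.37 ± 0.16, adjusted p = 0.298 in limma, exact permutation p = 0.2), which is 1.29-fold and so no call. This difference was the lowest among 28 named repeated-spot probes, of which 21 had a higher IP signal in BHD-treated rats. Of all probes tested, 9.01% had a difference as low or lower. The BHD-treated arrays are those of the comparison with control rats, so this rank is no separate support. log2(IP/Sup) differed by −0.27 (interval −0.60 to 0.06, adjusted p = 0.510) and the Sup signal by −0.10 (interval −0.50 to 0.30, adjusted p = 0.888). Within slide 2, where 2 rats of each group were scanned together, the IP difference was −0.34 and the ratio difference −0.15. Between model and control rats the IP signal of Map2 differed by −0.37, the Sup signal by −0.25 and log2(IP/Sup) by −0.12, with overlapping groups in each. Within slide 1, which held model replicate 1 and the controls, the IP difference was −0.59 and the Sup difference −0.55.

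**Figure D2:**
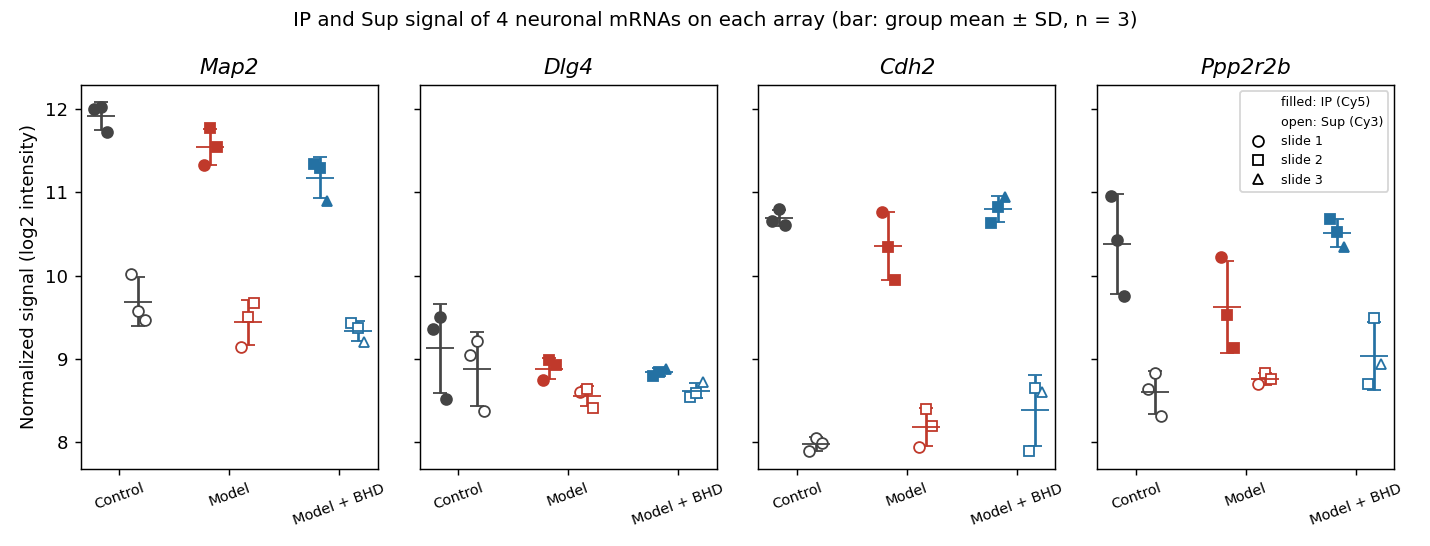
Normalized IP (filled) and Sup (open) signal on the log2 scale for the 4 mRNAs in 3 control, 3 model and 3 BHD-treated rats, with marker shape for the slide and bars for group mean ± SD; heights are comparable between groups of one gene, not between genes. The Map2 IP signal falls between 11.72 and 12.02 in control rats and between 10.89 and 11.34 in BHD-treated rats, and Ppp2r2b IP reaches 9.13 in model replicate 3.

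Dlg4 (probe A_44_P238314, RefSeq NM_019621) encodes the scaffold protein of the postsynaptic density that anchors glutamate receptors. It had the steadiest log2(IP/Sup) of the 4 genes, and its values overlapped between all groups in each of the 3 quantities. log2(IP/Sup) was 0.32, 0.28 and 0.15 in control rats, 0.15, 0.34 and 0.51 in model rats, and 0.25, 0.25 and 0.16 in BHD-treated rats. Its SD over the 9 arrays was 0.115, rank 22 of 28 named repeated-spot probes.

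The IP and Sup signals of Dlg4 were spread mainly by the control rats. The IP signal was 9.36, 9.50 and 8.52 in control rats, 8.75, 8.98 and 8.92 in model rats, and 8.80, 8.85 and 8.88 in BHD-treated rats. The Sup signal was 9.05, 9.22 and 8.37 in control rats, 8.60, 8.64 and 8.41 in model rats, and 8.55, 8.59 and 8.72 in BHD-treated rats. Control replicates 1 and 2 were thus high and control replicate 3 low in both channels, so that the ratio, taken within each array, varied less than either signal.

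No call was made for Dlg4 in either tested comparison. BHD-treated and model rats differed by −0.11 in log2(IP/Sup) (interval −0.34 to 0.12, adjusted p = 0.682 in limma), by −0.04 in IP signal (interval −0.57 to 0.49) and by 0.07 in Sup signal (interval −0.38 to 0.52). BHD-treated and control rats differed by −0.03 in log2(IP/Sup) (interval −0.26 to 0.20, adjusted p = 0.981), by −0.28 in IP signal (interval −0.81 to 0.24) and by −0.26 in Sup signal (interval −0.71 to 0.19). The intervals of the ratio exclude a 1.5-fold difference in both comparisons, whereas that of the IP signal against control rats does not. Without control replicate 3 the IP difference to control rats was −0.59 and met both thresholds, as 2.71% of all probes did, and without control replicate 2 it was −0.098. Model and control rats differed by 0.08 in log2(IP/Sup), −0.24 in IP signal and −0.33 in Sup signal.

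Cdh2 (probe A_44_P349475, RefSeq NM_031333) encodes N-cadherin, a cell adhesion molecule that spans the synaptic cleft. In control rats its relative m6A level was close among rats, and in model rats it split by rat. log2(IP/Sup) was 2.76, 2.74 and 2.62 in control rats, 2.82, 1.94 and 1.75 in model rats, and 2.74, 2.18 and 2.34 in BHD-treated rats. Model replicate 1 lay above all controls, and model replicates 2 and 3 lay below every other array, so the model mean (2.17 ± 0.57, SD, n = 3) describes no single rat.

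Both channels contributed to these ratios. The IP signal of Cdh2 was 10.65, 10.80 and 10.61 in control rats, 10.76, 10.34 and 9.95 in model rats, and 10.63, 10.83 and 10.94 in BHD-treated rats. The Sup signal was 7.89, 8.05 and 7.99 in control rats, 7.94, 8.40 and 8.19 in model rats, and 7.90, 8.65 and 8.61 in BHD-treated rats. The low ratios of model replicates 2 and 3 therefore came with an IP signal below, and a Sup signal above, those of the controls, whereas the BHD-treated rats with lower ratios had a high Sup signal and no low IP signal.

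Between model and control rats the difference for Cdh2 was −0.54 ± 0.27 in log2(IP/Sup), 1.45-fold lower, with −0.33 in IP signal and 0.20 in Sup signal. The 2 low model rats shared slide 2, and the third shared slide 1 with the controls. Within slide 1 the ratio difference was 0.11, the IP difference 0.08 and the Sup difference −0.04, and the ratio difference was −0.86 without model replicate 1 and −0.33 without model replicate 3. The IP difference was −0.54 without model replicate 1 and −0.13 without model replicate 3. In this comparison 0.591% of all probes were called for log2(IP/Sup), 1.35% for IP and 1.27% for Sup signal.

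BHD-treated rats had a Cdh2 IP signal higher than model rats by 0.45 ± 0.19 (interval 0.01 to 0.89, adjusted p = 0.293 in limma, exact permutation p = 0.2), which is 1.37-fold and no call. It was higher in 3 of 3 BHD-treated rats than in model replicates 2 and 3, and overlapped with model replicate 1. In this comparison 4.96% of all probes were called for IP signal and 0 of the 3 genes tested. log2(IP/Sup) differed by 0.25 ± 0.26 (interval −0.34 to 0.83, adjusted p = 0.727), against 2.68% of probes called, and the Sup signal by 0.20 (adjusted p = 0.802), against 2.57%. Within slide 2, where BHD replicates 1 and 2 stood beside model replicates 2 and 3, the ratio difference was 0.61 and met both thresholds (adjusted p = 0.146 in limma), as did 9.04% of all probes there, against 2.68% over all rats. On that slide the IP difference was 0.58 (adjusted p = 0.139) and the Sup difference was −0.03. Without model replicate 1 the IP difference was 0.66 and met both thresholds, as did 7.08% of all probes. Without model replicate 3 the IP difference was 0.25 and the ratio difference 0.038, and without BHD replicate 1 the ratio difference was 0.087. These comparisons share the model arrays with the model against control comparison known beforehand. An adjusted p under 0.05 was reached in none of the settings tried for Cdh2.

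BHD-treated rats and control rats had overlapping Cdh2 values in every quantity. The difference was −0.29 in log2(IP/Sup) (interval −0.87 to 0.30, adjusted p = 0.906 in limma), 0.12 in IP signal (interval −0.32 to 0.55) and 0.40 in Sup signal (interval −0.06 to 0.87, adjusted p = 0.363). With slide as a block the ratio difference turned to 0.72 and met both thresholds (adjusted p = 0.595), and the IP difference became 0.66 and met them too (adjusted p = 0.426). That fit called 5.01% of all probes for the ratio and 5.42% for IP signal. Its link to the control rats rested on model replicate 1, and BHD replicate 3 did not bear on it.

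Ppp2r2b (probe A_44_P242397, RefSeq NM_022209) encodes a regulatory B subunit of protein phosphatase 2A that is found mainly in neurons. It had the widest spread of log2(IP/Sup) among the 28 named repeated-spot probes (SD 0.602 over 9 arrays), with Cdh2 next at 0.396. log2(IP/Sup) was 2.31, 1.59 and 1.44 in control rats, 1.52, 0.69 and 0.37 in model rats, and 1.98, 1.03 and 1.40 in BHD-treated rats. The highest model value reached into the control range, and model replicates 2 and 3 were below all other arrays. The gene was known from the model against control comparison, and every comparison of it below shares arrays with that one, so no p is given for it.

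The model rats stood apart more in the IP channel than in the Sup channel. The IP signal of Ppp2r2b was 10.95, 10.42 and 9.76 in control rats, 10.22, 9.53 and 9.13 in model rats, and 10.68, 10.52 and 10.34 in BHD-treated rats. Every BHD-treated rat was above every model rat, with 10.34 against 10.22 at the nearest, while control replicate 3 lay among the model rats. The share of all probes separated in this way was not counted. The Sup signal was 8.64, 8.83 and 8.32 in control rats, 8.70, 8.83 and 8.76 in model rats, and 8.70, 9.49 and 8.93 in BHD-treated rats, with overlap throughout.

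The model and control means of Ppp2r2b differed by −0.92 ± 0.34 in log2(IP/Sup), 1.89-fold lower, by −0.75 ± 0.38 in IP signal and by 0.16 in Sup signal. The ratio and IP differences were the lowest of the 26 named repeated-spot probes in this comparison, with Cdh2 second for the ratio. Since the genes were proposed with this comparison known, these ranks are a description and no support. Within slide 1 the ratio difference was −0.26 and the IP difference −0.16, so most of the difference lay with the model rats on slide 2. The part of the slide in these values was not tested.

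BHD-treated and model rats differed by 0.61 ± 0.35 in log2(IP/Sup) of Ppp2r2b and by 0.89 ± 0.34 in IP signal, 1.85-fold higher, with 0.28 in Sup signal. The ratio and IP differences were the highest of 28 named repeated-spot probes, ranks that rest on the same low model arrays and are no separate support. On slide 2 alone, where BHD replicates 1 and 2 were both above model replicates 2 and 3, the differences were 0.97 for the ratio and 1.27 for the IP signal, larger than over all rats. Without model replicate 3 the IP difference was 0.64 and the ratio difference 0.36, and without BHD replicate 1 the ratio difference was 0.35. BHD-treated and control rats differed by −0.31 in log2(IP/Sup), 0.13 in IP signal and 0.44 in Sup signal, with overlapping groups in each. With slide as a block the ratio difference turned to 0.71 and the IP difference became 1.11, linked to the controls by model replicate 1 and without a share of BHD replicate 3. Without control replicate 3 the IP difference turned to −0.18.

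**Figure D3:**
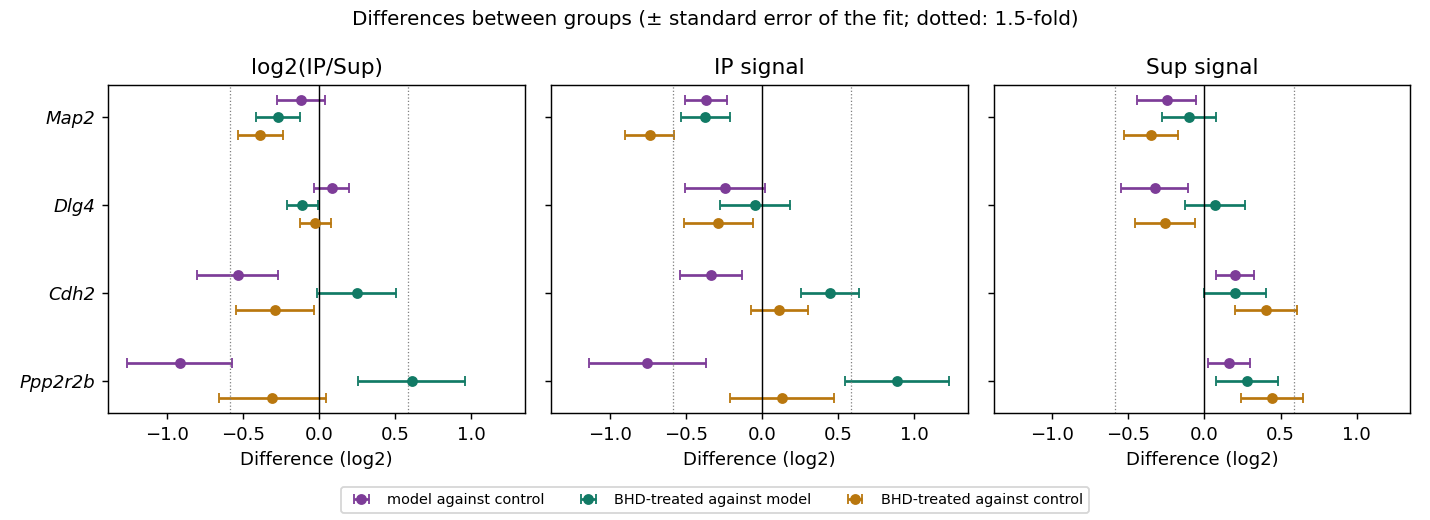
Differences between group means on the log2 scale, with the standard error of the limma fit (n = 3 rats per group), for log2(IP/Sup), IP and Sup signal of the 4 mRNAs; dotted lines mark a 1.5-fold difference. Map2 IP lies at −0.74 for BHD-treated against control rats, and Ppp2r2b IP lies at −0.75 for model against control and 0.89 for BHD-treated against model.

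In mean IP signal the 3 groups took one order for Map2 and Dlg4 and another for Cdh2 and Ppp2r2b. These orders were not tested, and some steps were small. BHD-treated rats differed by −0.04 from model rats for Dlg4, and from control rats by 0.12 for Cdh2 and 0.13 for Ppp2r2b. Among named repeated-spot probes, 21 of 27 had a higher IP signal in BHD-treated than control rats, and 21 of 28 than model rats. For Map2, the mean IP signal went from control (11.91 ± 0.17, SD, n = 3) to model (11.54 ± 0.22) to BHD-treated rats (11.17 ± 0.24), and neighbouring groups overlapped. For Cdh2 the order was BHD-treated (10.80 ± 0.16), control (10.69 ± 0.10) and model (10.35 ± 0.41), with overlap between neighbours. For Ppp2r2b it was BHD-treated (10.51 ± 0.17), control (10.38 ± 0.60) and model (9.62 ± 0.55), with overlap between neighbours but none between BHD-treated and model rats. Dlg4 went from control (9.13 ± 0.53) to model (8.88 ± 0.12) to BHD-treated rats (8.84 ± 0.04), and no neighbours were apart.

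The profiles over the 9 arrays were compared by the root mean square difference in log2(IP/Sup) after each probe's own mean was subtracted, over the other 27 named repeated-spot probes. These values share the arrays and their normalization and carry no p. Nearest to Map2 were Pdcd10 (0.155), Trim2 (0.180) and Ndfip1 (0.184), and nearest to Dlg4 were Cyp2e1 (0.102), Eif4b (0.145) and LOC108352165 (0.148). Cyp2e1 and Eif4b belong to the flattest probes of the set, as Dlg4 does. Nearest to Cdh2 were Cse1l (0.160), Odf2l (0.210) and Ndfip2 (0.236), followed by Ppp2r2b (0.280). Nearest to Ppp2r2b were Ndfip2 (0.258), Cdh2 (0.280) and Cse1l (0.337). Cdh2 and Ppp2r2b were thus near each other by rank, with Ndfip2 and Cse1l in common. From Ppp2r2b, Map2 was at rank 19 and Dlg4 at rank 21 of 27. Map2 and Dlg4 differed by less (0.262), at rank 10 from Map2 and rank 16 from Dlg4. The measure grows with the spread of a probe, which was widest for Ppp2r2b (SD 0.602).

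**Figure D4:**
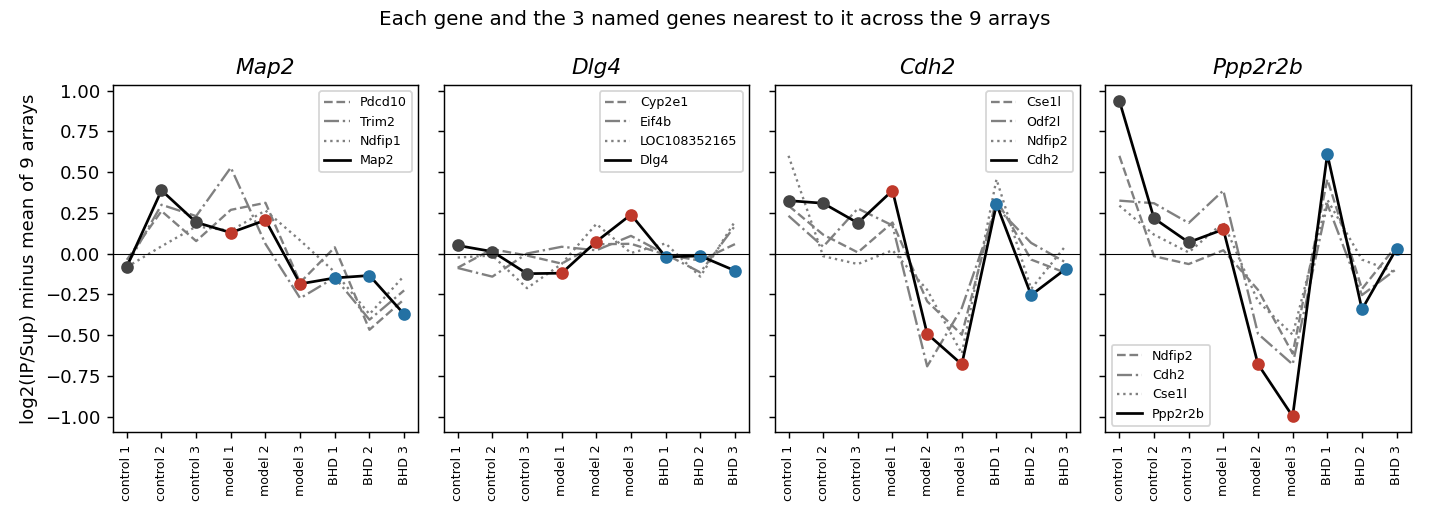
log2(IP/Sup) of each of the 4 mRNAs minus its mean over the 9 arrays (black line with points in group colours: dark grey control, red model, blue BHD-treated), with the 3 named repeated-spot probes nearest to it (grey lines); lines only join arrays and imply no order. Cdh2 and Ppp2r2b and their neighbours share low values in model replicates 2 and 3, whereas Dlg4 stays nearly flat with an SD of 0.115.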

How the data were processed

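The authors deposited Agilent Feature Extraction 11.0.1.1 scanner output with unnormalized median spot intensity per channel, spot flags (outlier, saturated, well above background), and processed intensity corrected for background and dye. The deposited normalized table of 32860 probes holds 0 of the 4 probes and was not used. Every sample's scanner output was read.

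Median intensities were corrected by normexp (offset 50), control spots had weight 0, outlier spots were left out, arrays were normalized by loess and, for IP and Sup signals, by Aquantile, and repeated spots were averaged. limma 3.58.1 (R 4.3.3, data.table version 1.17.8) was fitted to all probes well above background (at least 50% of a probe's spots) in 1 or both channels on 3 or more of the arrays entering the comparison, with values on at least 2 arrays per group: 31640 probes for model against control (6 arrays), 32819 for BHD-treated against model and 31909 for BHD-treated against control (all 9 arrays). Figures used Python 3.11.15, pandas 2.3.3 and matplotlib 3.10.9. The fit was tested on simulated data. The number of arrays limits the precision.

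Symbols came from RefSeq accessions in a table of assembly GRCr8, used for names only. The files' headers name build rn4, and no position is given. The genes to name were the 4 mRNAs, the 3 named repeated-spot probes nearest to each, and any gene of the neuronal, synaptic and m6A lists with such a probe. The 4 mRNAs and the lists were chosen with earlier results of these data known. Same-numbered arrays deviated together to a varying degree, although no label says what a number shares. Across probes r was 0.433, 0.139 and 0.319 for model and control, and 0.386, 0.319 and 0.157 for BHD-treated and control rats. For BHD-treated and model rats r was 0.597, 0.0347 and 0.252. The main fits were unpaired, and a block for replicate number was an alternative in every comparison. Alternatives covered background correction, normalization, filters, outlier spots, averaging, adjusted p, arrays in the fit, blocks for slide and replicate number, and each replicate left out.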

Additional observations from a re-analysis of the deposited data

How the results depend on the processing

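The call of Map2 IP signal in BHD-treated against control rats held in 16 of 17 alternatives, which reuse the same arrays, with differences from −0.92 to −0.60. With an adjusted p (limma, Benjamini-Hochberg) 0 of the 3 genes tested were called, where Map2 stayed at −0.74. With the replicate block the paired difference was −0.74 and again called (adjusted p = 0.133), and the block changed no call of the 3 genes in any comparison. It moved the number of probes called in the ratio from 187 to 801 for model against control and from 879 to 1332 for BHD-treated against model.

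With slide as a block, 1 gene was called for log2(IP/Sup) of BHD-treated against model (Cdh2, 0.61). This is the same difference as within slide 2, the only slide with rats of both groups, and so no separate support. For BHD-treated against control, 1 gene was called for log2(IP/Sup) (Cdh2, turned to 0.72), 2 for IP signal (Map2 and Cdh2) and 1 for Sup signal (Map2). The same fits called 7.68% of all probes (9.04% within slide 2), 5.01%, 5.42% and 2.24%, against 2.68%, 0.975%, 3.59% and 5.93% without the block. Cdh2 Sup signal turned to −0.026 against model (the same within slide 2) and −0.063 against control. Without normalization within arrays, which moved the median of all probes by −0.56 in the ratio for model against control and by 0.51 for BHD-treated against model, 1 gene was called for IP signal of BHD-treated against model (Cdh2, with 9.91% of all probes), and in that comparison Map2 turned to 0.18 in log2(IP/Sup) and Dlg4 to 0.24 in log2(IP/Sup), 0.13 in IP and −0.10 in Sup signal. Relative to the shift of all probes, Map2 and Dlg4 stayed lower in the ratio. The cause was not tested.

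Leaving out 1 replicate, the number of genes called ranged from 0 to 1 for IP signal of BHD-treated against model (Cdh2 without model replicate 1, with 7.08% of all probes), from 1 to 2 for IP signal against control (Map2, and Dlg4 without control replicate 3, with 2.71%) and from 0 to 1 for Sup signal against control (Cdh2 without BHD replicate 1, with 10.6%). Ppp2r2b IP signal against control, with no test, ranged from −0.18 without control replicate 3 to 0.42 without control replicate 1. Other differences near 0 changed sign: Dlg4 from −0.11 to 0.0073 in IP and from −0.00031 to 0.11 in Sup signal and Map2 from −0.25 to 0.014 in Sup signal against model, and Dlg4 from −0.077 to 0.0089 in log2(IP/Sup) against control. Without model replicate 3, log2(IP/Sup) of model against control was 9.1e-05 for Map2 and −0.0029 for Dlg4.

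Over all alternatives, probes called ranged from 0 (adjusted p) to 1706 (without model replicate 1) around 187 in log2(IP/Sup) for model against control, from 0 to 3439 (processed intensities of the scanner software) around 879 for BHD-treated against model, and from 0 to 1600 (slide block) around 311 for BHD-treated against control. For IP signal the ranges were 0 to 1770 around 428, 1 to 4086 around 1628 and 1 to 3251 around 1146, and for Sup signal 0 to 1804 around 401, 3 to 2561 around 845 and 2 to 4813 around 1891. The deposited table gave no value, since it lacks these probes.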
